A study of Mus musculus with 9 samples.

Results

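Tuft-type microvillous cells and ionocytes are sparse epithelial cells of the nose, and 9 of their genes were followed here through the main olfactory epithelium (MOE) of mice with and without TAAR enhancer 1. The 9 genes were chosen by name and not by their values, although earlier results of these data were known. They made up 9 of the 24421 gene rows of the count table. Of these, 6 stood for tuft or microvillous chemosensory cells (Trpm5, Gnat3, Pou2f3, Chat, Il25 and Avil) and 3 for ionocyte-type microvillous cells (Ascl3, Foxi1 and Cftr). All 9 passed the filter on low counts and none was at 0 in any library.

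Polyadenylated RNA of the whole MOE was sequenced from 9 mice, labelled as C57BL/6 and postnatal day 14, with 3 wild-type (WT), 3 heterozygous (het) and 3 homozygous (homo) animals. TAAR enhancer 1 is a regulatory element in the trace amine-associated receptor (Taar) gene cluster on chromosome 10. It was removed by CRISPR-Cas9 editing of zygotes, and the mutant animals descend from 1 established line, so a second, independent deletion was not analysed here. The methods describe the 3 genotypes as littermates, but the labels tie no library to a litter, and the submitters' reporting form speaks of mixed C57BL/6J and 129 backgrounds for the mouse lines and of adult animals for this one, while the labels name C57BL/6 alone and postnatal day 14. The study asked what loss of the enhancer does to receptor genes. The comparisons below ask whether genes of these rare non-neuronal cells differed between the same animals.

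Tuft cells are chemosensory epithelial cells that use the taste-receptor signalling chain and release acetylcholine, eicosanoids and interleukin 25. In the olfactory epithelium their counterparts are microvillous cells with the cation channel Trpm5, and the POU-domain factor Pou2f3 is required to make them. Ionocytes are specified by the forkhead factor Foxi1 and carry Cftr and proton pumps, and the bHLH factor Ascl3 marks a related microvillous lineage.

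Because transcription factors are among the genes, the sequence in front of some of them is shown for reference. RefSeq promoters (GRCm38.p6, 250 bases before and 50 after the annotated start) were held for 7 of the 9 genes, with Pou2f3 and Il25 not analysed here. Each was searched on both strands for an octamer of POU factors (ATGCAAA), a forkhead motif (TAAACA) and an E-box of bHLH factors (CAGCTG), whose matches do not overlap in the windows below. Avil (chr10:127000459-127000758, plus strand) and Ascl3 (chr7:109731683-109731982, minus strand) are printed because they held the shortened octamer, with matches in capitals.

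Avil: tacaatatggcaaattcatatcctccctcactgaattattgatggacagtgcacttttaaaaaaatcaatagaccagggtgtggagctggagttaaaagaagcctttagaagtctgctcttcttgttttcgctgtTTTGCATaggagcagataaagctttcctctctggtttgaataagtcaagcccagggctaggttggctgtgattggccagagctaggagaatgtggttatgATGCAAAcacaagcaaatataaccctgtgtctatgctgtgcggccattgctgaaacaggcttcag

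Ascl3: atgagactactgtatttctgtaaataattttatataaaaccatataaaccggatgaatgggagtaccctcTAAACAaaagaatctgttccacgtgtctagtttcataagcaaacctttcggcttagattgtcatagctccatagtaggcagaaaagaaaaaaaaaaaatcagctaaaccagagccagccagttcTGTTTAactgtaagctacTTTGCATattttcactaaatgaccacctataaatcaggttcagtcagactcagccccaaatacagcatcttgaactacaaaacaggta

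The Avil window held the shortened octamer 2 times, the first match beginning at position -115 relative to the start. The Ascl3 window held the shortened octamer 1 time, at position -38, and the forkhead motif 2 times, the first at position -180. None of the shortened octamers ran on into the full octamer. The next 2 windows, of Trpm5 (chr7:143094593-143094892, minus strand) and Foxi1 (chr11:34208040-34208339, minus strand), are printed as the contrast, as the defining channel of the tuft-type cells and the defining factor of ionocytes, in which none of the 3 motifs was found.

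Trpm5: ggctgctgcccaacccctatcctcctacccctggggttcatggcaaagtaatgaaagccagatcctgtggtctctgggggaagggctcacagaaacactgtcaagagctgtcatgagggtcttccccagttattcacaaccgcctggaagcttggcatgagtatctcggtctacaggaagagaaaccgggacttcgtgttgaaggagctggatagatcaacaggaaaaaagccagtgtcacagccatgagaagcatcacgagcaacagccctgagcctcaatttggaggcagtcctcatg

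Foxi1: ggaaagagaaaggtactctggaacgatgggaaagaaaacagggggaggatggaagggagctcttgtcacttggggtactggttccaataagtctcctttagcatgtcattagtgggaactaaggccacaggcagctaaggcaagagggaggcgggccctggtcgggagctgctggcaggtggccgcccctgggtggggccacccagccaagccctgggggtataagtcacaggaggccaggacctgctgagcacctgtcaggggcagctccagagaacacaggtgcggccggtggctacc

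Of the other windows, Chat held the E-box 1 time, at position -150, and those of Gnat3 and Cftr held none of the 3. Among 32851 RefSeq mouse promoters of this length, 4.63% held the shortened octamer, 13.4% the forkhead motif and 16.3% the E-box. The matches describe letters only, and the series measured no binding at them.

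Between 24583906 and 32631951 reads per library were assigned to genes, so that 3 reads correspond to 0.0919 to 0.122 CPM, a gene's reads scaled to the size of the library. The label check held in every library, with summed Taar2 to Taar5 levels of 9.11 to 10.3 CPM in WT, 5.34 to 6.54 CPM in het and 0.0387 to 0.106 CPM in homo mice. Markers of the tissue were abundant, the sustentacular list summing to 6585 to 7472 CPM over the 9 libraries. The olfactory neuron list of 4 genes summed to 5913 to 5997 CPM in WT, 5954 to 6391 CPM in het and 6084 to 6595 CPM in homo mice. Every homo library lay above every WT library in this sum and in Omp and Gnal, which gave most of it. Such a gap between homo and WT libraries, in either direction, was found for 15.4% of all genes tested. Adcy3 and Cnga2 overlapped between homo and WT mice. The part of this list in the results below was not tested. Of the libraries, 3 stood apart in the summed level of 330 vomeronasal receptor rows, a marker of vomeronasal tissue. That sum was 67.3 CPM in het 1, 119.8 CPM in homo 2 and 69.7 CPM in homo 3, against 14.5 to 17.3 CPM in the other 6 libraries. None of the 9 genes separated these 3 libraries from the other 6, and the share of all genes that did was not counted. They are called the 3 libraries with vomeronasal reads below, although all 9 held some. Results without them are given where they turn a direction. With them left out, homo 1 is the only homo library, so such homo values rest on homo 1 alone.

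Levels are given as CPM on effective library sizes, and between genes as RPKM, which is CPM divided by the length of the gene's exons in kilobases. Per length, the ionocyte genes stood above the tuft genes in this tissue. Ascl3 was highest at a mean level of 26.4 RPKM over the 9 libraries (23.3 to 32.5), followed by Foxi1 at 9.46 RPKM (8.40 to 10.4). Cftr had a mean level of 3.36 RPKM (2.81 to 3.59). Pou2f3 led the tuft genes with a mean level of 2.78 RPKM (2.34 to 3.01), ahead of Avil at 1.76 (1.48 to 2.02) and Trpm5 at 1.52 (1.33 to 1.82). Il25, Gnat3 and Chat were scarce, with mean levels of 0.286, 0.171 and 0.104 RPKM. The library ranges of Cftr and Pou2f3 overlapped, although Cftr was higher within 8 of 9 libraries, and those of Avil and Trpm5 overlapped with Avil higher in 6 of 9. Il25 and Gnat3 overlapped, as did Gnat3 and Chat, while a gap without overlap lay between Ascl3 and Foxi1, Foxi1 and Cftr, Pou2f3 and Avil, and Trpm5 and Il25.

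**Figure D1:**
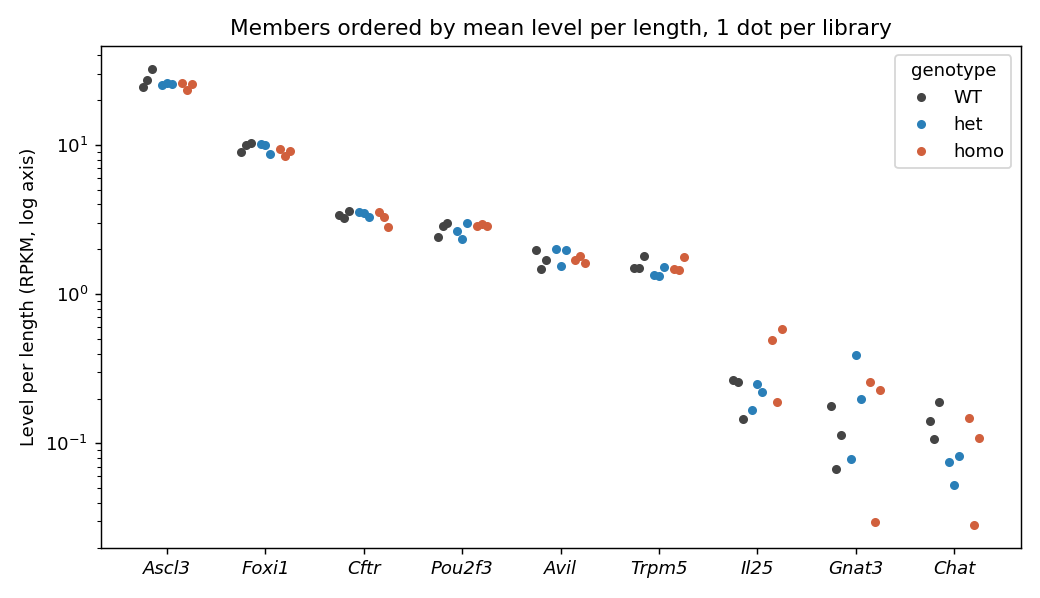
Level per length (RPKM, logarithmic axis) of the 9 genes, ordered by their mean, with 1 dot per library colored by genotype (3 WT, 3 het, 3 homo). Ascl3 and Foxi1 stand above the rest in every library, and Il25, Gnat3 and Chat lie below all libraries of the other 6 genes.

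In the chemosensory chain, Trpm5 encodes the calcium-activated cation channel that depolarizes tuft and taste cells (chr7:143069153-143094642, minus strand, 25 exons, GENCODE M21). Its level was 6.14, 6.14 and 7.50 CPM in WT 1 to 3, 5.56, 5.48 and 6.29 CPM in het 1 to 3, and 6.06, 6.01 and 7.35 CPM in homo 1 to 3. The genotypes overlapped, and the highest library was WT 3, with homo 3 just under it. Trpm5 was 0.98-fold the WT level in homo mice (95% interval 0.81 to 1.19; log2 difference -0.02 ± 0.13 SE, n = 3 per genotype; edgeR adjusted p = 0.977), and 0.88-fold in het mice (0.72 to 1.07).

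Gnat3 encodes gustducin, the taste G-protein alpha subunit (chr5:17962549-18019834, plus strand, 8 exons). Only 57 reads fell on it over the 9 libraries, 6, 3 and 4 in WT, 3, 14 and 8 in het, and 10, 1 and 8 in homo mice. The lowest and second-highest libraries were both homozygous, so no order of the genotypes can be read. The fitted homo to WT log2 difference was 0.58 ± 0.77 SE, with a 95% interval of the ratio of 0.48 to 4.63, so that a several-fold rise or a fall to about the lower bound was not detectable at this depth.

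Pou2f3, the tuft-lineage transcription factor (chr9:43123939-43210369, minus strand, 13 exons), had levels of 6.54, 7.82 and 8.12 CPM in WT, 7.16, 6.35 and 8.15 CPM in het and 7.79, 8.09 and 7.74 CPM in homo mice. The homo libraries lay closest together, inside the range of the other 2 genotypes. The homo level was 1.05-fold WT (0.87 to 1.26; log2 difference 0.07 ± 0.12 SE; edgeR adjusted p = 0.915).

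Avil encodes advillin, an actin-binding protein of the tuft-cell brush (chr10:127000709-127020994, plus strand, 20 exons), and lies on the same chromosome as the deletion. Its level was 6.42, 4.83 and 5.57 CPM in WT, 6.59, 5.07 and 6.46 CPM in het and 5.57, 5.85 and 5.26 CPM in homo mice. All 3 homo libraries lay within the WT range. The homo to WT ratio was 1.00 (0.81 to 1.23; edgeR adjusted p = 0.993). Avil shares 165 exonic bases with Tsfm on the opposite strand, and since the strand setting of the counting is not given in the sources used here, reads there cannot be told apart.

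Of the tuft-cell effectors, Il25 encodes the cytokine that tuft cells send to innate lymphoid cells (chr14:54932695-54935837, plus strand, 3 exons). Its read counts were 7, 9 and 4 in WT, 5, 7 and 7 in het, and 15, 5 and 16 in homo mice, or 0.528, 0.203 and 0.619 CPM in the latter. Homo 1 and homo 3 were the 2 highest libraries, and homo 2 lay within the WT and het ranges. The homo level was 1.88-fold WT (0.87 to 4.10; log2 difference 0.91 ± 0.53 SE; edgeR adjusted p = 0.630) and 1.98-fold het (0.91 to 4.34; log2 difference 0.99 ± 0.53 SE; edgeR adjusted p = 0.542), neither larger than the spread between libraries. Summed over the 3 libraries, the exact Poisson 95% interval, which covers counting error only, was 0.320 to 0.633 CPM in homo, 0.147 to 0.371 CPM in WT and 0.136 to 0.351 CPM in het mice. Without homo 2, the fitted homo to WT log2 difference was 1.25 (edgeR unadjusted p = 0.0267, adjusted p = 0.465), and without homo 3 it was 0.63.

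Chat encodes choline acetyltransferase, which makes acetylcholine (chr14:32408203-32465989, minus strand, 16 exons). Its reads numbered 10, 10 and 14 in WT, 6, 4 and 7 in het, and 12, 2 and 8 in homo mice. In CPM these were 0.402, 0.305 and 0.541 in WT, 0.214, 0.151 and 0.237 in het, and 0.423, 0.0813 and 0.309 in homo mice. Every het library lay below every WT library, while the homo libraries spanned both. This was the 1 gene of 9 without overlap between het and WT, against 8.68% of all 20213 genes tested in either direction and 4.32% in the lower direction. The fitted het level was 0.49-fold WT (0.21 to 1.14; log2 difference -1.01 ± 0.57 SE; edgeR unadjusted p = 0.0941, adjusted p = 1.00). The homo level was 0.67-fold WT (0.30 to 1.51; edgeR adjusted p = 0.807). This log2 difference, -0.57, ranged from -1.04 without homo 1 to -0.16 without homo 2. Without the 3 libraries with vomeronasal reads, which leaves homo 1 as the only homo library, it was 0.04. Slc18a3, the vesicular acetylcholine transporter gene within a Chat intron, had 0 reads among 246445087 over the 9 libraries. The exact Poisson 95% interval of its level, which covers counting error only, ran from 0 to 0.0150 CPM. Slc5a7, the choline transporter of the same route, had 36 reads in WT, 20 in het and 15 in homo mice, and its 95% interval for homo against WT, 0.18 to 1.13, also included 1.

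Turning to the ionocyte genes, Ascl3 encodes a bHLH transcription factor (chr7:109727465-109731726, minus strand, 2 exons). Its level was 17.3, 19.3 and 22.8 CPM in WT, 17.6, 18.4 and 18.1 CPM in het and 18.4, 16.3 and 17.9 CPM in homo mice. WT 3 was highest and homo 2 lowest, but WT 1 fell among the mutant libraries. The homo level was 0.89-fold WT (0.77 to 1.02; log2 difference -0.17 ± 0.10 SE; edgeR unadjusted p = 0.0886, adjusted p = 0.617), and the het level 0.91-fold (0.79 to 1.05). Without WT 1, the homo to WT log2 difference was -0.26 (edgeR unadjusted p = 0.0192, adjusted p = 0.712), and without WT 3 it was -0.060.

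Foxi1, the forkhead factor of ionocytes (chr11:34204338-34208089, minus strand, 2 exons), had levels of 21.04, 23.6 and 24.4 CPM in WT, 24.1, 23.5 and 20.7 CPM in het and 22.1, 19.8 and 21.5 CPM in homo mice. The homo values lay at the low end but overlapped WT 1 and het 3. The homo to WT ratio was 0.92 (0.81 to 1.04; log2 difference -0.13 ± 0.08 SE; edgeR adjusted p = 0.682).

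Cftr encodes the chloride channel of ionocytes (chr6:18170687-18322768, plus strand, 27 exons). Its level was 25.7, 24.3 and 26.9 CPM in WT, 26.7, 26.2 and 24.7 CPM in het and 26.7, 24.7 and 21.1 CPM in homo mice. Of the 9 libraries 8 fell between 24.3 and 26.9 CPM, and homo 3 was the lowest. The homo to WT ratio was 0.94 (0.83 to 1.07; edgeR adjusted p = 0.818), a log2 difference of -0.08. Without the 3 libraries with vomeronasal reads, which leaves homo 1 as the only homo library, that difference was 0.06. Cftr shares 129 exonic bases with the antisense gene Gm15592, and reads there cannot be told apart without the strand setting.

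**Figure D2:**
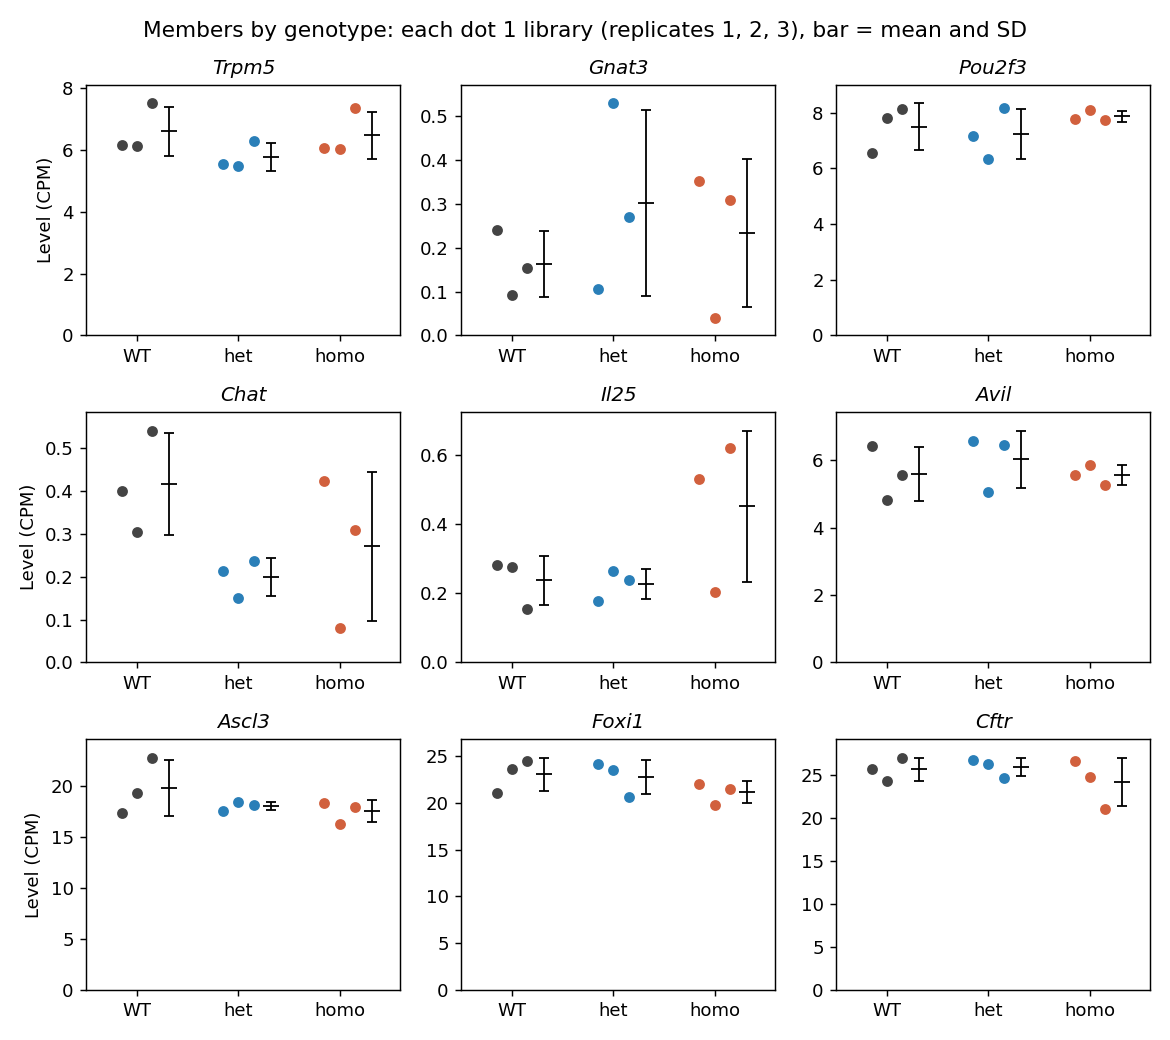
Level (CPM) of each gene by genotype, 1 dot per library in replicate order and a bar for the mean ± SD (n = 3); every axis starts at 0 and has its own scale. All panels show overlapping genotypes apart from WT and het in Chat, where 34 reads in WT stand against 17 in het mice.

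Across the 9 genes, none passed the edgeR quasi-likelihood test at an adjusted p of 0.05 in any comparison, and none had an unadjusted p under 0.05. Over all 20213 genes tested, edgeR called 0.0495% between homo and WT, 0.00495% between het and WT and 0.114% between homo and het mice, and 0.0643% for any difference among genotypes. The matching shares at an unadjusted p under 0.05 were 9.26%, 3.25%, 10.4% and 8.45%. DESeq2 without independent filtering also called 0 of 9 in each pair and gave 0 of 9 an unadjusted p under 0.05, beside calls in 0.267%, 0.0148% and 0.623% of all genes. A count of 0 among 9 genes lies near these background shares and does not show that the genotypes were alike.

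Fitted differences in homo against WT were positive for 3 genes and negative for 6, with a median log2 difference of -0.02 beside -0.00057 over all genes tested. In het against WT the split was again 3 and 6, with a median of -0.05 beside 0.0033, and in homo against het it was 4 and 5, with a median of -0.04 beside -0.0017. The 3 comparisons share libraries, and their values are given side by side only. No gene separated homo from WT or homo from het libraries, against 15.4% and 14.1% of all genes tested. The widths of the intervals divided the genes by depth. For the 6 genes with 1410 to 6214 reads, each homo to WT interval stayed between 0.77 and 1.26, whereas for Gnat3, Chat and Il25, with 57 to 75 reads, the intervals ran from 0.30 to 4.63.

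**Figure D3:**
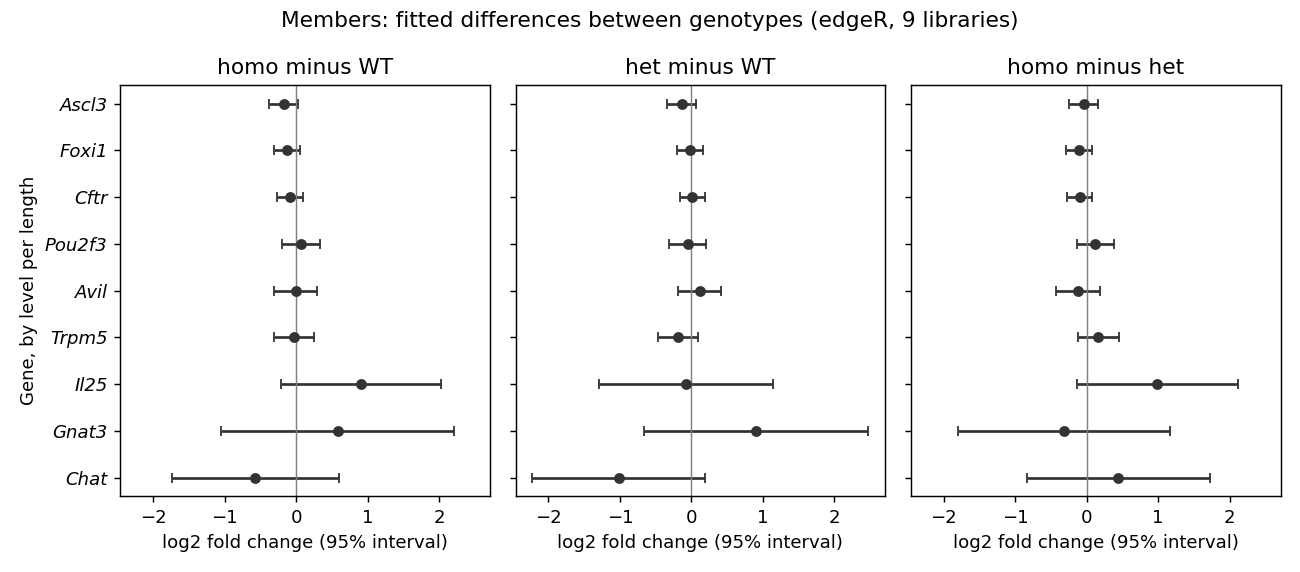
Fitted log2 fold change and 95% interval of each gene in the 3 pairs of genotypes (edgeR, 9 libraries), on 1 common axis with genes ordered by level per length. Every interval crosses 0, and those of Il25, Gnat3 and Chat are the widest.

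The spread over all 9 libraries followed the same division. The coefficient of variation was 7.29% for Cftr, 7.48% for Foxi1, 9.07% for Pou2f3, 9.85% for Ascl3 and 11.2% for both Trpm5 and Avil, where counting error alone would give 3.81% to 7.99%. For Chat, Il25 and Gnat3 it was 48.5%, 52.6% and 65.9%, where counting alone would give 34.6% to 39.7%. Summed over genes, the tuft group ranged from 17.8 to 22.0 CPM and the ionocyte group from 60.5 to 74.2 CPM, with overlap among genotypes in both. In bulk tissue, fewer cells of a type and less RNA per cell cannot be told apart.

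Genes of one cell type did not always vary together. Over the 9 libraries, which share their normalization, Pearson's r of log2 CPM was 0.70 between Ascl3 and Foxi1, 0.41 between Foxi1 and Cftr and 0.28 between Ascl3 and Cftr. Trpm5 had r = 0.55 both with Pou2f3 and with the ionocyte gene Ascl3, while Trpm5 and Avil had r = -0.18 and Pou2f3 and Avil r = -0.04. Without the 2 libraries farthest from the median, r was 0.39 between Ascl3 and Foxi1, 0.61 between Trpm5 and Pou2f3 and 0.015 between Trpm5 and Ascl3. Among 16166 other genes with a mean of at least 1 CPM, those most like Trpm5 were Dhps (r = 0.96), Tmem205 (0.94), Coro1b (0.93), 1810019D21Rik (0.92) and Npy (0.92). Those most like Ascl3 were Pygb (r = 0.96), Nudt22 (0.93), Dcxr (0.91), Plekhd1 (0.91) and Mamstr (0.90). These genes were picked by their r over the same 9 libraries, so the next values are no separate check. Spearman's rho was 0.72 to 0.93 for the 5 genes like Trpm5 and 0.60 to 0.90 for the 5 like Ascl3. Without the 2 libraries farthest from the median Pearson's r ranged from 0.68 to 0.87 for Trpm5 and from 0.60 to 0.89 for Ascl3. Pou2f3 stood 1292nd in likeness to Trpm5, and Foxi1 245th in likeness to Ascl3.

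Other genes of the same pathways were followed in 2 lists. The tuft list held 31 genes of taste-type signalling, acetylcholine and eicosanoid synthesis, transcription and structure, of which 30 had a row, 24 passed the filter and 3 (Tas2r119, Slc18a3 and Sucnr1) had no read. Sh2d6 was not analysed here. The ionocyte list held 19 genes of proton pumps, chloride and potassium channels, transporters, transcription factors and 4 other markers (Coch, Hepacam2, Stap1 and Asgr1), and 18 passed the filter, Foxi3 having 2 reads in all. Neither edgeR nor DESeq2 without independent filtering called a gene of either list in any pair of genotypes.

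Between homo and WT mice, 2 tuft genes were higher and 3 lower at an unadjusted p under 0.05, beside 4.55% and 4.71% of all genes tested, and 0 ionocyte genes were higher and 2 lower. Between het and WT the counts were 0 higher and 1 lower for the tuft list and 0 for the ionocyte list, beside 1.75% and 1.49%. Between homo and het they were 1 higher and 2 lower for the tuft list and 0 higher and 1 lower for the ionocyte list, beside 4.22% and 6.2%. The median log2 differences for homo against WT were -0.0016 for the tuft list and -0.07 for the ionocyte list, in which 14 of 18 fitted values were negative, beside 10149 of 20213 over all genes. In the ionocyte list 15 of 18 were negative between het and WT, beside 9799 of 20213 over all genes. Between homo and het mice 8 of 18 were, beside 10213. The homo and het comparisons with WT share the WT libraries, so their counts are not separate results.

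**Figure D4:**
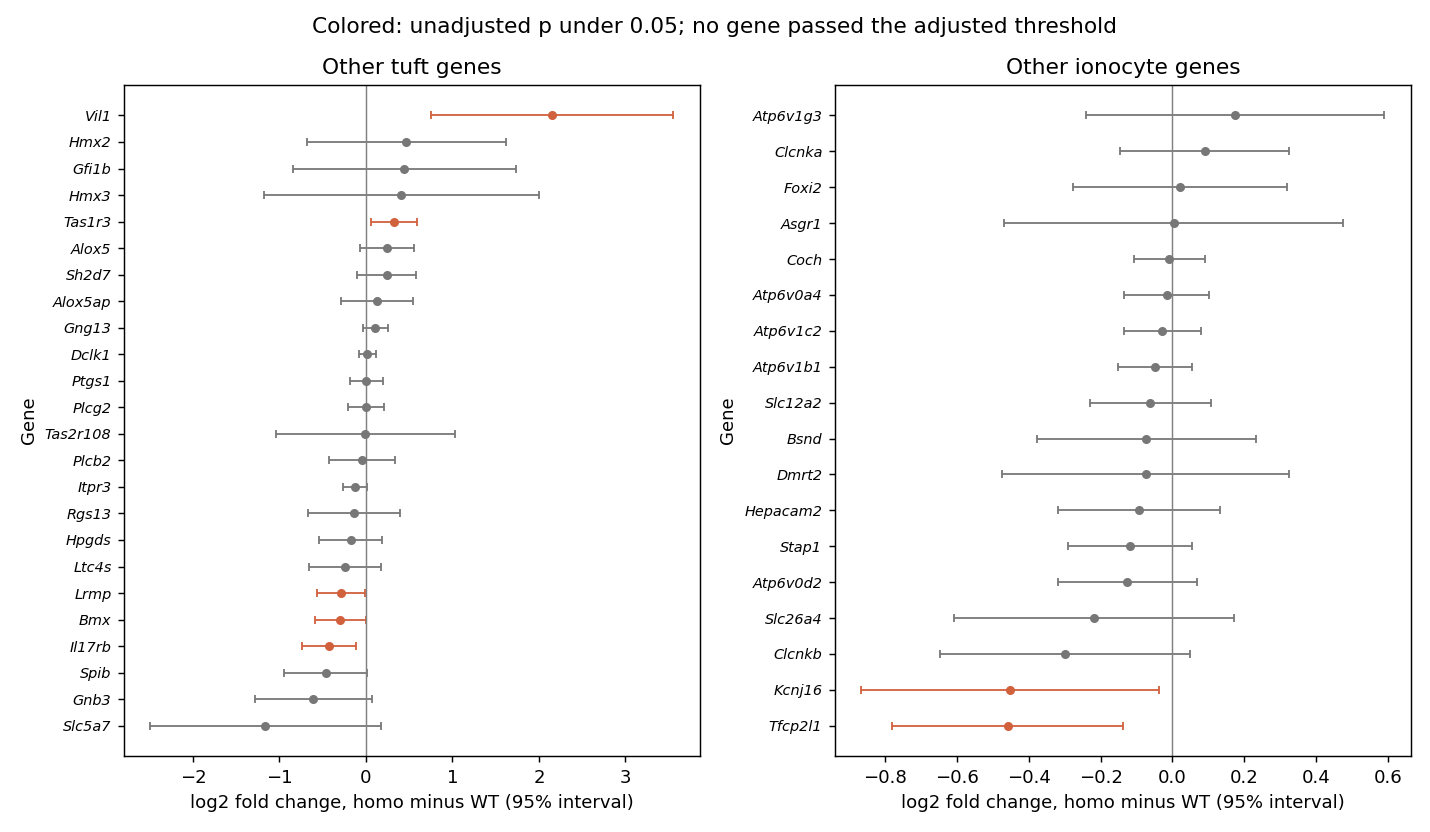
Fitted log2 fold change and 95% interval, homo minus WT, for the 24 tuft list genes (left) and 18 ionocyte list genes (right) that were tested; the panels have different horizontal scales. The 5 tuft and 2 ionocyte genes with an unadjusted p under 0.05 are colored, and no gene passed the adjusted threshold.

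The most abundant tuft list genes per length were Gng13, a G-protein gamma subunit also used by olfactory neurons, at 263 RPKM, Dclk1, a kinase of tuft cells that neurons also express, at 16.7 RPKM, and Ptgs1, a prostaglandin synthase, at 5.66 RPKM. In the ionocyte list they were Slc12a2, a sodium-potassium-chloride cotransporter of many epithelia, at 94.2 RPKM, Coch at 87.3 RPKM and Atp6v1c2, a proton pump subunit, at 55.0 RPKM. These levels lie above those of Trpm5 (1.52 RPKM) and, apart from Dclk1 and Ptgs1, of Ascl3 (26.4 RPKM). Their fitted homo to WT log2 differences lay between -0.06 (Slc12a2) and 0.11 (Gng13).

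Among the taste-type signalling genes, Itpr3, the inositol trisphosphate receptor upstream of Trpm5, had levels of 49.6, 50.3 and 46.6 CPM in WT, 55.9, 56.4 and 48.0 CPM in het and 46.6, 43.1 and 44.6 CPM in homo mice. Every homo library lay below every het library. The homo to het log2 difference was -0.25 ± 0.06 SE (edgeR unadjusted p = 0.0013, adjusted p = 0.180). Without het 3 it was called, at an edgeR adjusted p of 0.0223, and without the 3 libraries with vomeronasal reads it was -0.16 (unadjusted p = 0.115). Tas1r3, a taste receptor subunit, had levels of 5.18, 5.44 and 5.95 CPM in WT, 5.70, 5.52 and 5.55 CPM in het and 6.62, 6.18 and 7.93 CPM in homo mice. All 3 homo libraries were above the other 6, with a homo to WT log2 difference of 0.32 ± 0.13 SE (edgeR unadjusted p = 0.0212, adjusted p = 0.451) that was 0.21 without homo 3.

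Vil1, which encodes villin of the microvillus core, was 0.642, 0.611 and 0.580 CPM in WT, 2.32, 0.983 and 0.338 CPM in het and 0.423, 4.27 and 3.60 CPM in homo mice. The 3 highest libraries were the same 3 with the highest vomeronasal receptor sums. Vil1 was the only gene of the 9 and of both lists that separated them, and the share of all genes that did was not counted. The homo to WT log2 difference was 2.15 ± 0.66 SE (edgeR unadjusted p = 0.0051, adjusted p = 0.356). Without those libraries, which leaves homo 1 as the only homo library, it was -0.53. The remaining tuft genes past the unadjusted threshold were lower. Il17rb, a receptor for interleukin 25, had a homo to WT log2 difference of -0.43 ± 0.15 SE (edgeR unadjusted p = 0.0102, adjusted p = 0.415). Lrmp, an endoplasmic reticulum membrane protein, had one of -0.29 ± 0.13 SE that was -0.18 without homo 2, and -0.43 ± 0.13 SE between het and WT (edgeR unadjusted p = 0.0048, adjusted p = 1.00). Bmx, a tyrosine kinase, had one of -0.30 ± 0.14 SE, and -0.41 ± 0.14 SE between homo and het mice (edgeR unadjusted p = 0.0087, adjusted p = 0.313), the latter being -0.26 without het 1.

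In the ionocyte list, Tfcp2l1, a transcription factor of transporting epithelia, was 78.8, 75.4 and 93.8 CPM in WT, 75.9, 95.7 and 53.8 CPM in het and 56.6, 69.7 and 54.2 CPM in homo mice. The homo libraries lay below all WT libraries, and het 3 was lower still. The homo to WT log2 difference was -0.46 ± 0.15 SE (edgeR unadjusted p = 0.0080, adjusted p = 0.398), and without het 3 the homo to het difference was called at an edgeR adjusted p of 0.0467. That difference, -0.32 in all libraries, was -0.51 without het 3 and -0.11 without het 2. Kcnj16, an inward-rectifier potassium channel, was 18.4, 17.1 and 27.8 CPM in WT, 18.8, 19.8 and 11.5 CPM in het and 14.7, 18.1 and 13.4 CPM in homo mice. Its homo to WT log2 difference was -0.45 ± 0.19 SE (edgeR unadjusted p = 0.0348, adjusted p = 0.510), and without WT 3, the highest library, it was -0.20 (edgeR unadjusted p = 0.285). Slc26a4, the anion exchanger pendrin, had a homo to het log2 difference of -0.46 ± 0.18 SE (edgeR unadjusted p = 0.0224, adjusted p = 0.396) that ranged from -0.34 without homo 2 to -0.70 without homo 3.

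Tfcp2l1 and Kcnj16 were both lowest in het 3, homo 1 and homo 3. In the same list Dmrt2, Slc12a2 and Atp6v1b1, which did not pass the unadjusted threshold, were also lowest there. So were 4 of the 8 markers of respiratory epithelium (Foxj1, Dnah5, Dnah9 and Ltf). Ccdc39, Bpifa1 and Muc5b followed other orders and Scgb1a1 was at or near 0. The share of all genes lowest in het 3, homo 1 and homo 3 was not counted. Foxj1, the regulator of motile cilia, was 131, 138 and 135 CPM in those 3 libraries against 143 to 161 CPM in the other 6. Dnah5, a ciliary dynein, was 60.0, 53.0 and 55.5 CPM in those 3 libraries against 83.1 to 143 CPM in the other 6. Ltf, which encodes lactotransferrin of secretory cells, was 266, 383 and 320 CPM in them against 509 to 847 CPM in the other 6. The respiratory ciliated list of 4 genes summed to 409 to 466 CPM in WT, 356 to 513 CPM in het and 350 to 404 CPM in homo mice, and the secretory list of 4 to 4542 to 5124, 3550 to 4717 and 3696 to 3997 CPM. Their part in the differences of Tfcp2l1 and Kcnj16 was not tested. Ascl3, Foxi1 and Cftr did not have their 3 lowest values in these libraries.

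**Figure D5:**
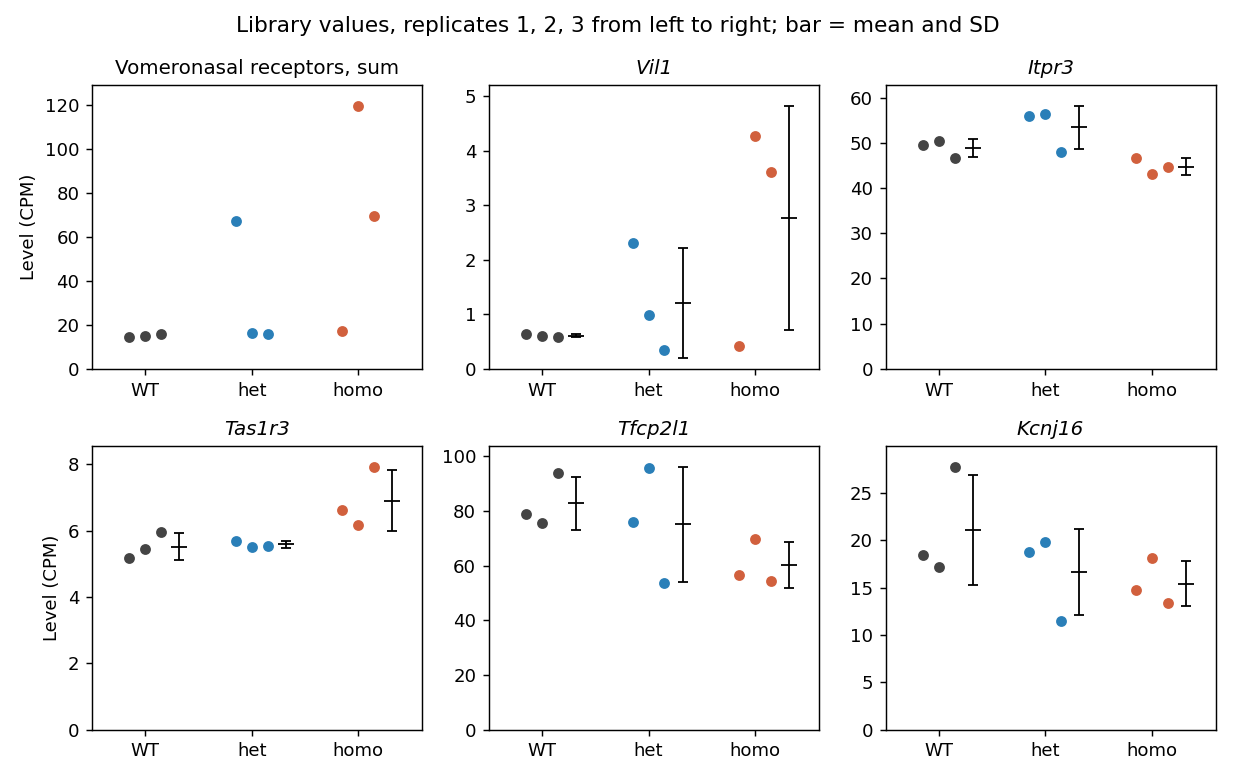
Summed vomeronasal receptor level and levels of 5 list genes (CPM) by genotype, 1 dot per library in replicate order from left to right, with the mean ± SD (n = 3) for the single genes; each axis starts at 0. Vil1 is highest in het 1, homo 2 and homo 3 as the vomeronasal sum is, and Tfcp2l1 and Kcnj16 are lowest in het 3, homo 1 and homo 3.

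Markers of other cells that express genes of these programs were present. The 5 mast cell markers, counted because mast cells make eicosanoids as tuft cells do, summed to 54.8 to 66.7 CPM, with Kit, which other cells also express, giving most of the sum and none of the other 4 above 0.499 CPM (Fcer1a) in any library. The 5 osteoclast markers, counted because osteoclasts use the proton pump subunit Atp6v0d2, summed to 783 to 882 CPM in WT, 685 to 875 CPM in het and 681 to 774 CPM in homo mice. Every homo library lay below every WT library in this sum, most of which came from Ctsk and Acp5. Ctsk was 416 to 467 CPM in WT and 346 to 397 CPM in homo mice. Ocstamp was 3.83 to 4.18 CPM in WT and 2.72 to 3.80 CPM in homo mice. Calcr had a mean level of 1.17 CPM in WT and 0.653 CPM in homo mice. Acp5 and Dcstamp overlapped between homo and WT mice. Of all genes tested, 15.4% separated homo from WT libraries in either direction. Atp6v0d2 had a homo to WT log2 difference of -0.13 ± 0.09 SE (edgeR adjusted p = 0.716) and Alox5, an eicosanoid enzyme, one of 0.24 ± 0.15 SE (edgeR adjusted p = 0.648). The part of mast cells and osteoclasts in the levels of Alox5 and Atp6v0d2 was not tested.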

How the data were processed

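RNA of whole MOE tissue was prepared with DNase treatment, polyA selection and the NEBNext Ultra Directional kit. Per the labels and methods, the authors trimmed reads with Trimmomatic 0.36 and aligned them to mm10 with HISAT2 2.1.0. The processing notes name HTSeq 0.6.1p1 for counting and the methods name featureCounts. The annotation and strand setting are not given in the sources used here. The deposited raw counts per gene, with no normalization, were used, and a second deposited table of normalized counts was not used. The raw table also holds 5 summary rows, which were left out of library sizes. Reads in genes made up 57.4% to 60.0% of a library's reads, reads on no feature 21.6% to 22.4%, reads not uniquely aligned 16.9% to 19.4% and ambiguous reads 1.29% to 1.35%.

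Genes with at least 10 counts over the 9 libraries (20213) were tested in R 4.3.3 with edgeR 4.0.16 (TMM, quasi-likelihood F test, genotype as the only term, all 9 libraries). P-values are two-sided and were adjusted by Benjamini-Hochberg over all genes tested, with a threshold of 0.05. DESeq2 1.42.0 and the other settings given at the end were alternatives, and each gene's 95% interval comes from the edgeR fit. The fits were tested on simulated data. RPKM used exon lengths of GENCODE M21, matched by symbol for 23350 of 24421 rows. Same-genotype libraries differed by more than sampling noise (chi-square per degree of freedom 4.47 to 15.8). The labels name no litter, so p-values measure the spread between these samples.

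The 9 genes, the lists and the tests were chosen with earlier results of these data known. Named list genes were those called or with an unadjusted p under 0.05 in any pair of genotypes and the 3 highest per length in each list. For Trpm5 and Ascl3, the 5 genes with the highest Pearson's r were named, and Taar2 to Taar5 served to check the labels. Slc5a7, Alox5, Atp6v0d2, Dmrt2, Atp6v1b1, the respiratory markers, the osteoclast markers and Fcer1a were named after their values were seen. Intervals and limits from read counts cover counting error only, since the libraries carry no molecular identifiers. The result of 1 marker list is not reported here.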

Additional observations from a re-analysis of the deposited data

How the results depend on the processing

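None of the 9 genes was called under any alternative run: DESeq2 size factors, DESeq2 with default settings or without independent filtering, no filter on low counts, filterByExpr (which left out Gnat3 and Il25), only the 6 libraries compared, each library left out in turn, the 3 libraries with vomeronasal reads left out, or their receptor level as a covariate. Under DESeq2 default settings 9 of the 9 genes had no adjusted p between homo and WT and 5 between homo and het mice. Of 480 fitted differences under alternatives, 452 kept their direction and 28 turned. Leaving out the 3 libraries turned the log2 difference of Chat to 0.039 and of Cftr to 0.058 between homo and WT, of Il25 to 0.067 and of Cftr to -0.0084 between het and WT, and of Ascl3 to 0.0056 and of Cftr to 0.066 between homo and het mice. With the covariate, Il25 turned to 0.11 between het and WT and Gnat3 to 0.29 between homo and het mice. The cause of these turns was not tested.

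Leaving out 1 library at a time gave ranges that crossed 0. Between homo and WT these were -0.13 to 0.080 for Trpm5, -0.016 to 0.13 for Pou2f3, -0.11 to 0.10 for Avil and -0.16 to 0.0042 for Cftr. Between het and WT they were -0.15 to 0.029 for Pou2f3, -0.29 to 0.068 for Il25, -0.082 to 0.042 for Foxi1 and -0.028 to 0.052 for Cftr. Between homo and het mice they were -0.74 to 0.32 for Gnat3, -0.030 to 0.86 for Chat and -0.077 to 0.012 for Ascl3. The number of list genes called between homo and het mice ranged from 0 to 1 in each list, with 1 called (Itpr3 in the tuft list, Tfcp2l1 in the ionocyte list) only without het 3. The edgeR unadjusted p-values of the 9 genes fell under 0.05 only without WT 1 (Ascl3), without homo 2 (Il25) and with the vomeronasal covariate (Il25 between homo and het mice), and the lowest edgeR or DESeq2 adjusted p over all alternatives was 0.406. Deviations of log2 CPM from the genotype mean, for genes with a mean of at least 1 CPM, were correlated between same-numbered libraries. These correlations ran from -0.16 to 0.30, over 0.1 only between het 2 and homo 2 and between het 3 and homo 3. Not every pair deviated together, so the numbers were not taken as pairs. Values for differently numbered libraries are not given here. A fit blocked on the replicate number called 0 of the 9 genes and 0 list genes. Gnat3, Chat and Il25 had 57 to 75 reads in all. Their homo to WT intervals reached up to 4.63 for Gnat3 and 4.10 for Il25, and down to 0.30 for Chat. The part of depth and of spread between libraries in these widths was not tested.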
